A study of Mus musculus with 56 samples.

Results

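The acute phase proteins are plasma proteins whose hepatic synthesis shifts during inflammation, infection or tissue injury. Described here are 10 listed genes of this class, Saa1, Saa2, Saa3, Lcn2, Orm1, Orm2, Hp, Crp, Apcs and Itih4, of 52230 genes in the liver libraries. All 10 were found by symbol, and the estimated reads of their transcripts were summed per gene. The livers came from 56 male mice of a C57BL/6N knock-in line (GCKR-P446L-EMI-B6N) in which the P446L change replaces proline (P) by leucine (L) in the glucokinase regulatory protein (GKRP, gene Gckr). GKRP binds glucokinase in the hepatocyte nucleus. All mice were kept for 20 weeks on high-fat pellets with glucose and fructose in the drinking water (HFHSD). Some mice of every genotype were also given, in the diet, 3 mg/kg of a glucokinase activator (GKA).

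The 6 groups were PP (10 mice), PL (8 mice) and LL (10 mice) without GKA, and PP (10 mice), PL (8 mice) and LL (10 mice) with GKA. The main comparisons left out PP mouse 7, so that 55 mice were compared and PP without GKA had 9. The knock-in was present in the whole body and not in hepatocytes alone. Every group shared the diet, so no group on a regular diet is described. The labels give neither age, litter, batch nor time of harvest, so no comparison within batches was possible. Each library was 1 mouse, and p-values measure the spread between these mice.

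In the acute phase response, cytokines from macrophages and other cells, chiefly the interleukins Il6 and Il1b, act on hepatocytes through the receptors Il6ra with Il6st and Il1r1 with Il1rap. The signal reaches the transcription factors STAT3, NF-kB and C/EBP, and Socs3 and related inhibitors close the loop. Serum amyloid A (Saa1 and Saa2 in hepatocytes, Saa3 mainly in macrophages and other cells outside the hepatocyte) and the orosomucoids are the strongly inducible mouse proteins. Crp, the main acute phase protein of man, changes little in the mouse, in which Apcs (serum amyloid P component) takes that place.

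Saa1 (chromosome 7, 46389916 to 46392547, minus strand, GRCm39), Saa2 (46401214 to 46403737, plus strand) and Saa3 (46361422 to 46365576, minus strand) lie in a cluster. Saa4 (46377406 to 46382035) lies between Saa3 and Saa1. Orm1 (chromosome 4, 63261052 to 63272189) and Orm2 (63280686 to 63284115) also lie close together on the plus strand, with Orm3 (63274364 to 63277748) between them. The pentraxins Crp (172525614 to 172660598, plus strand) and Apcs (172721528 to 172722611, minus strand) share chromosome 1. Lcn2 (chromosome 2, 32274645 to 32278264, minus strand), Hp (chromosome 8, 110301759 to 110305804, minus strand) and Itih4 (chromosome 14, 30608378 to 30624310, plus strand) stand alone. All 10 are protein-coding.

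Saa1 and Saa2 are near copies of each other, and so are Orm1 and Orm2. The main transcripts of Saa1 and Saa2 had 94.3% identical bases over 652 aligned columns, with a longest identical run of 99 bases. For Orm1 and Orm2 the identity was 91.0% over 775 columns, with a longest run of 141 bases. Saa1 and Saa3 shared 76.1% of 389 columns, and Crp and Apcs shared 59.3% of 670. Reads within the identical runs of Saa1 and Saa2, or of Orm1 and Orm2, cannot be assigned to a single gene with certainty, so the split between those copies is an estimate of Salmon.

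The 250 bases upstream of the main transcript are shown for 5 members. Saa1, Saa2 and Orm2 moved together between mice, Saa3 is the third member in the Saa cluster and Crp did not move with them. They are written 5′ to 3′ on the strand of the gene, and capitals mark the letters of a C/EBP motif, TTGCNNAA. The windows lie upstream of the annotated transcripts of GENCODE on GRCm39, at chr7:46392548-46392797 (Saa1, minus), chr7:46400964-46401213 (Saa2, plus), chr7:46365577-46365826 (Saa3, minus), chr4:63280436-63280685 (Orm2, plus) and chr1:172525364-172525613 (Crp, plus).
Saa1: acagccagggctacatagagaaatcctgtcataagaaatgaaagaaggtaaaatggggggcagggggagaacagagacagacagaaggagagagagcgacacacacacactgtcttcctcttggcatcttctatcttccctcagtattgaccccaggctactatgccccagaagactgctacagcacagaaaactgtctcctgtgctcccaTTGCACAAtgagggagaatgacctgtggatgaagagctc
Saa2: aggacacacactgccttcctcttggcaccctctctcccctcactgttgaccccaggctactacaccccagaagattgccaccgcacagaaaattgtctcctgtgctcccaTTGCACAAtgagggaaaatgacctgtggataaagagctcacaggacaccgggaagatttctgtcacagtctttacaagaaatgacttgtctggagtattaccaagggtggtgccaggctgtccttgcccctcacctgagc
Saa3: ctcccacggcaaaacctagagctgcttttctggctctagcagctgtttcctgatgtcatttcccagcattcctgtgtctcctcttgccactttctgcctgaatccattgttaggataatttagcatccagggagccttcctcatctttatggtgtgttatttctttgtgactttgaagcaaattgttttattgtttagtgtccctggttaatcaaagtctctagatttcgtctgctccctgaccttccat
Orm2: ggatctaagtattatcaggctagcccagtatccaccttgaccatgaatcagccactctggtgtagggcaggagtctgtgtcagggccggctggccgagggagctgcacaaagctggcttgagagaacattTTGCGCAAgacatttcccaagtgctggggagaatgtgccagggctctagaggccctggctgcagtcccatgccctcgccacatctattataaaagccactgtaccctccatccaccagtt
Crp: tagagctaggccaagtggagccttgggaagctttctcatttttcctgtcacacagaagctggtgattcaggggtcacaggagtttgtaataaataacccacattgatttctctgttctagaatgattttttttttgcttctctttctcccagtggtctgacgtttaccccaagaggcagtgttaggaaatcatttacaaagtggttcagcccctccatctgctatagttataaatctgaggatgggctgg

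The windows of Saa1 and Saa2 were 89.2% identical over 148 aligned columns, and both held the letters TTGCACAA, 39 to 32 bases before the start in Saa1 and 140 to 133 bases before it in Saa2. Orm2 held TTGCGCAA, which reads the same on both strands, 120 to 113 bases before the start, and Orm1 held the same letters 76 to 69 bases before its start. Lcn2 held TTGCTCAA 158 to 151 bases before the start. The windows of Saa3, Hp, Crp, Apcs and Itih4 held no C/EBP letters. Searched on both strands, none of the 10 windows held the NF-kB letters GGGNN followed directly by TTTCC or the STAT letters TTCNNNGAA. Of 11462 windows of the same length, 8.69% held the C/EBP letters, 1.47% the NF-kB letters and 6.53% the STAT letters. A match is a description of the letters and not of binding.

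The libraries held 5189852 to 8093368 reads (median 6555851). The 8 hepatocyte markers were detected in all 55 mice, and their summed level in CPM (reads of a gene scaled to a common library total) was between 79831 and 131173 CPM. The 11 neutrophil genes summed to 0 to 2.35 CPM. Ly6g and Camp were at 0 in 54 of 55 mice, S100a8 in 15 and S100a9 in 7. Of 7 adipose genes, which summed to 487 to 872 CPM, Adipoq and Lep were at 0 in all 55, while Adipor2, which hepatocytes also express, was present in all 55 (median 3896 reads) and Cidec in all but 1 (median 43 reads). Gckr was between 117 and 232 CPM over the 55 mice, and these counts do not show which residue a mouse carried. In whole liver RNA, fewer cells of a type and less RNA per cell cannot be told apart.

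Per length, haptoglobin led the members. The order by median TPM (reads scaled to transcript length and to a common total) over 55 mice was Hp (2092), Orm1 (749), Itih4 (412), Saa1 (193), Crp (128), Saa2 (109), Apcs (41.3), Orm2 (26.4), Lcn2 (16.9) and Saa3 (7.51). Hp was above Orm1 in all 55 mice and Orm1 above Itih4 in 54. Crp was above Saa2 in 25 of 55 mice, so the order of these neighbours depended on the mouse. The other neighbouring pairs kept the order of their medians in 37 to 46 mice.

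Values by group are given as the lowest, the median and the highest mouse, in CPM with TMM scaling (the trimmed-mean scaling of edgeR). Saa1 and Saa2 encode the inducible serum amyloid A proteins of high-density lipoprotein. Without GKA, Saa1 was 26.8, 86.2 and 333 CPM in PP, 29.5, 70.2 and 123 CPM in PL, and 43.1, 86.8 and 362 CPM in LL. With GKA, Saa1 was 40.7, 114 and 250 CPM in PP, 19.5, 119 and 1234 CPM in PL, and 47.9, 125 and 378 CPM in LL. The medians lay within 1.78-fold of each other, against a range of 63.2-fold between single mice. Saa2 was 9.73, 44.2 and 196 CPM in PP, 16.6, 34.6 and 76.7 CPM in PL, and 18.2, 41.5 and 125 CPM in LL without GKA. With GKA, Saa2 was 21.1, 63.5 and 105 CPM in PP, 10.8, 72.1 and 1081 CPM in PL, and 23.8, 70.7 and 173 CPM in LL. The highest Saa1 and Saa2 values came from the same PL mice with GKA, numbers 31 and 32, and the ranges of all 6 groups overlapped.

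Saa3, the serum amyloid A gene known from macrophages and adipose tissue, was at low level, with 6 to 126 reads per mouse and a median of 21. It was 0.845, 2.17 and 8.56 CPM in PP, 1.61, 2.84 and 6.52 CPM in PL, and 1.85, 4.44 and 9.91 CPM in LL without GKA. Its values with GKA were 2.27, 3.74 and 9.13 CPM in PP, 1.53, 3.38 and 4.96 CPM in PL, and 1.94, 3.69 and 19.4 CPM in LL. Unlike Saa1 and Saa2, Saa3 had its highest value in LL mouse 53 with GKA and not in PL mice 31 or 32. Saa4 was also highest in LL mouse 53 with GKA (507 CPM).

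Lcn2 encodes lipocalin, which binds bacterial siderophores. It was 2.54, 16.2 and 47.6 CPM in PP, 4.88, 11.8 and 26.0 CPM in PL, and 5.39, 16.1 and 43.1 CPM in LL without GKA. With GKA it was 7.62, 14.7 and 40.7 CPM in PP, 2.49, 24.2 and 134 CPM in PL, and 3.00, 20.3 and 86.5 CPM in LL. The lowest and the highest mouse of the study for this gene both belonged to PL with GKA, a 53.8-fold range.

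Orm1 and Orm2 encode orosomucoid, a carrier of basic drugs and lipids in plasma. Orm1 was 371, 463 and 659 CPM in PP, 323, 469 and 696 CPM in PL, and 371, 493 and 744 CPM in LL without GKA. Orm1 with GKA was 346, 457 and 702 CPM in PP, 334, 464 and 1495 CPM in PL, and 381, 529.8 and 821 CPM in LL. The highest group median was 1.16-fold the lowest. Orm2 was 5.20, 15.0 and 39.8 CPM in PP, 7.09, 18.2 and 23.8 CPM in PL, and 9.51, 18.2 and 94.5 CPM in LL without GKA. Orm2 with GKA was 5.99, 20.3 and 38.4 CPM in PP, 5.17, 21.5 and 88.5 CPM in PL, and 5.12, 23.0 and 78.4 CPM in LL. Orm2 thus varied 18.5-fold between mice and Orm1 4.63-fold.

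Haptoglobin (Hp) binds free haemoglobin in plasma. It was 1766, 2729 and 3588 CPM in PP, 1928, 2364 and 2549 CPM in PL, and 2022, 2641 and 3244 CPM in LL without GKA. With GKA it was 1789, 2672 and 3776 CPM in PP, 1807, 2685 and 4673 CPM in PL, and 1729.8, 2617 and 4742 CPM in LL. The medians of the other 5 groups were within 1.15-fold of the lowest, which was PL without GKA.

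Crp and Apcs are the short pentraxins, which bind phosphocholine and other ligands on microbes and damaged cells. Crp was 219, 313 and 363 CPM in PP, 229, 261 and 297 CPM in PL, and 230.3, 266 and 354 CPM in LL without GKA. Crp with GKA was 211, 267 and 320.5 CPM in PP, 228, 261 and 335 CPM in PL, and 272, 301 and 383 CPM in LL. Crp had the narrowest range of the 10 members, 1.82-fold over 55 mice. Apcs was 25.2, 40.8 and 58.5 CPM in PP, 36.7, 40.7 and 50.6 CPM in PL, and 25.6, 38.8 and 55.0 CPM in LL without GKA. Apcs with GKA was 27.6, 38.2 and 51.6 CPM in PP, 25.7, 38.8 and 153 CPM in PL, and 38.3, 47.4 and 92.9 CPM in LL. The groups overlapped, although the lowest LL mouse with GKA was level with the median of PP with GKA.

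Itih4 encodes an inter-alpha-trypsin inhibitor heavy chain. It was 957, 1255 and 1969 CPM in PP, 843, 1284 and 1633 CPM in PL, and 1274, 1374 and 1424 CPM in LL without GKA. With GKA it was 935, 1299 and 1932 CPM in PP, 1036, 1266 and 2519 CPM in PL, and 935, 1233 and 2759.6 CPM in LL. LL without GKA was the tightest group of any member, with an SD of 54.3 CPM around a mean of 1359 CPM (n = 10).

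**Figure D1:**
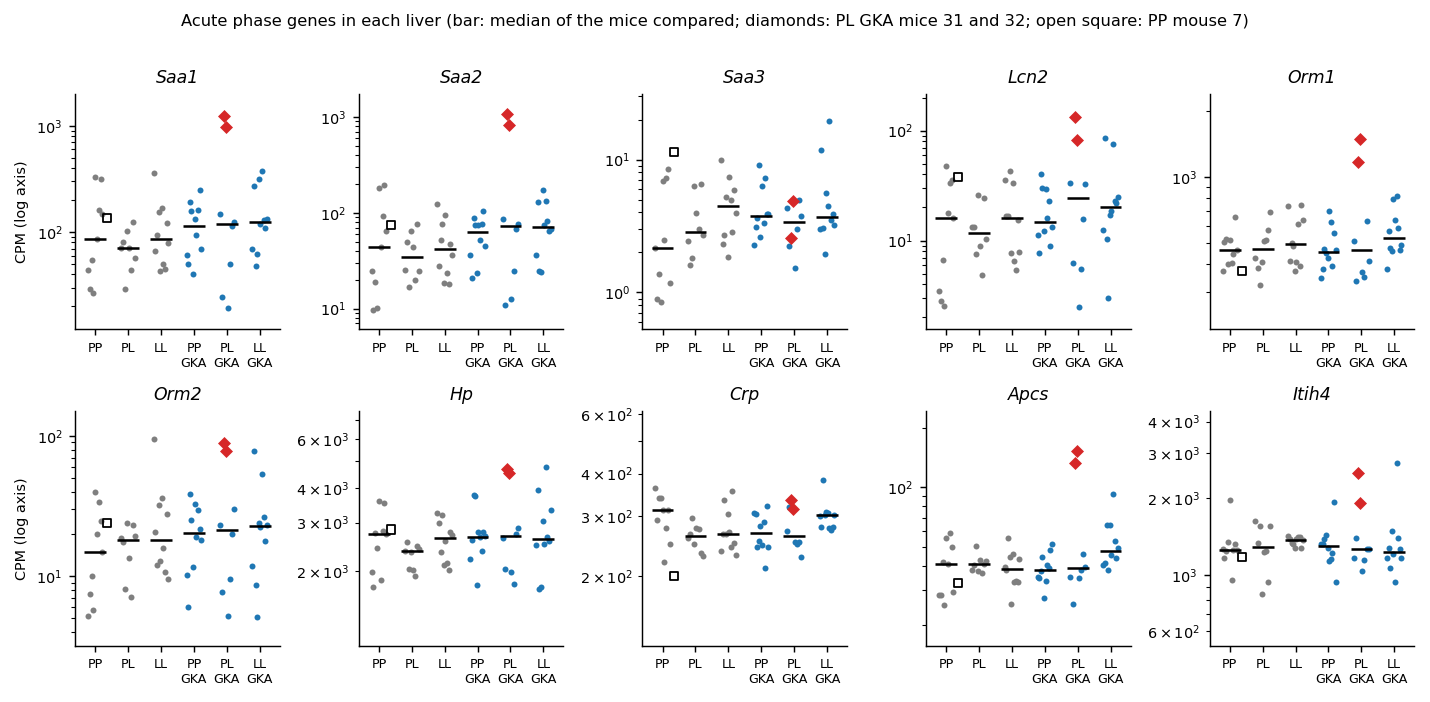
Level of the 10 acute phase genes in each of 56 livers, in CPM (log axis, TMM scaling), by group along the x axis (grey points without GKA, blue points with GKA, bars for the median of the mice compared). PL mice 31 and 32 with GKA (red diamonds) had 1234 and 964 CPM of Saa1, above the 378 CPM of the highest other mouse. PP mouse 7 (open square) was left out of the main comparisons.

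To assess whether the variant altered the acute phase genes on HFHSD, LL and PL livers were compared with PP livers and with each other. Without GKA, none of the 10 members was a differentially expressed gene (DEG) in any of these comparisons by the quasi-likelihood test of edgeR, where DEGs were genes with an adjusted p (Benjamini-Hochberg, over all genes tested) under 0.05 that differed 1.3-fold or more, or 0.7-fold or less. By LL genotype (LL against PP), 0 of 10 members and 0.0854% of all 10537 genes tested were DEGs, and 0 of 10 members and 11.8% of all genes had an unadjusted p below 0.05. The members' log2 fold changes were between -0.46 and 0.61, with a median of 0.03, against 0.01 for all genes. The member farthest from 0 was Orm2, at 0.61 (SE 0.451, unadjusted p 0.193, edgeR). DESeq2 also called 0 members in each of the 11 comparisons described.

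By PL genotype (PL against PP, without GKA), 0 of 10 members and 0.151% of 10580 genes were DEGs. An unadjusted p below 0.05 was seen for 1 member and for 10.1% of all genes. That member was Crp, with a log2 fold change of -0.20 (SE 0.0941, unadjusted p 0.0428, edgeR adjusted p 0.470). Saa1 lay farthest from 0, at -0.88 (SE 0.471, unadjusted p 0.0789), and the median member at -0.16. In the third comparison without GKA, LL against PL, 0 of 10 members and 0.00942% of 10616 genes were DEGs, and 0 members and 4.58% of all genes had an unadjusted p below 0.05. There 9 members were above 0 and 1 below it, with a median of 0.28, while 50.2% of all genes were above 0. The largest value was 0.72 for Orm2 (SE 0.404, unadjusted p 0.0917). Ranges did not overlap for 0 of 10 members in each of these 3 comparisons. Over 11477 genes the share was 0.0174% by LL genotype, 0.061% by PL genotype and 0.0349% for LL against PL.

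In the mice with GKA, LL against PP gave 0 DEGs among 10 members, against 0.239% of 10460 genes. Apcs was the 1 member with an unadjusted p below 0.05, as were 10.4% of all genes, and its log2 fold change was 0.45 (SE 0.147, unadjusted p 0.00579, edgeR adjusted p 0.229). All 10 members were above 0, with a median of 0.38, and so were 50.6% of all genes. With a covariate from 16 clock genes, the median was 0.12 and 7 members were above 0. The largest value belonged to Lcn2, at 0.61 (SE 0.439, unadjusted p 0.181). The adjusted p of Apcs was the lowest of any member in any comparison. Leaving out a single mouse at a time, in a fit of all 6 groups, kept Apcs between 0.32 and 0.50. Its unadjusted p in these refits was 0.0309 to 0.151 (edgeR), by another model than the one that gave 0.00579. The lowest values of Saa3 (-0.01), Hp (-0.04) and Itih4 (-0.11) in these refits were below 0.

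PL against PP with GKA had 0 DEGs among 10 members and 0% of 10520 genes, and 3 members had an unadjusted p below 0.05, as had 8.19% of all genes. Saa2 was at 2.19 on the log2 scale (SE 0.741, unadjusted p 0.00798, edgeR adjusted p 0.368), Saa1 at 1.47 (SE 0.670, unadjusted p 0.0406, adjusted p 0.586) and Apcs at 0.68 (SE 0.301, unadjusted p 0.0349, adjusted p 0.5679). All 3 values had the opposite sign without PL mice 31 and 32, which were singled out after their values were seen. Saa2 was then at -0.37 (unadjusted p 0.415, edgeR), Saa1 at -0.59 (unadjusted p 0.214) and Apcs at -0.10 (unadjusted p 0.460). The median member moved from 0.53 to -0.25, and from 9 members above 0 to none of 10.

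LL against PL with GKA had 0 DEGs among 10 members and 0% of 10491 genes, and 1 member and 8.6% of all genes had an unadjusted p below 0.05. That member was Saa2, at -1.75 (SE 0.754, unadjusted p 0.0307, edgeR adjusted p 0.544), and without PL mice 31 and 32 it was at 0.80 (unadjusted p 0.127). The median over the members went from -0.23, with 2 above 0, to 0.66, with 10 above 0. Without these mice 3 members and 6.03% of 10710 genes had an unadjusted p below 0.05, and 0 members were DEGs. The 3 were Apcs at 0.55 (SE 0.180, unadjusted p 0.00705, edgeR adjusted p 0.718), Crp at 0.20 (unadjusted p 0.0370) and Orm1 at 0.39 (unadjusted p 0.0439). Mice 31 and 32 were left out for their high Saa1 and Saa2, a choice that itself lowers the members in PL. These values therefore describe the remaining mice and do not test the genotype. In the mice with GKA, ranges did not overlap for 0 of 10 members in each comparison, against 0.0261% of 11477 genes for LL against PP, 0.00871% for PL against PP and 0.0174% for LL against PL.

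To assess the activator, livers with and without GKA were compared within each genotype. In PP, 0 of 10 members and 0% of 10548 genes were DEGs, and 0 members and 3.56% of all genes had an unadjusted p below 0.05. The members' log2 fold changes were between -0.26 and 0.39, with a median of 0.01. Saa3 was farthest from 0, at 0.39 (SE 0.415, unadjusted p 0.353, edgeR).

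In PL, GKA gave the largest log2 fold change of any member between groups, and it rested on mice 31 and 32. Of 10 members 0 were DEGs, as were 0% of 10399 genes, and 3 members and 3.18% of all genes had an unadjusted p below 0.05. Saa2 had a log2 fold change of 2.76 (SE 0.859, unadjusted p 0.00482), Saa1 of 2.21 (SE 0.738, unadjusted p 0.00770) and Lcn2 of 1.51 (SE 0.631, unadjusted p 0.0283), each with an edgeR adjusted p of 0.999. Without mice 31 and 32 the values were 0.20 for Saa2 (unadjusted p 0.679, edgeR), 0.15 for Saa1 (unadjusted p 0.735) and 0.22 for Lcn2 (unadjusted p 0.662). Leaving out a single mouse at a time, in a fit of all 6 groups, kept Saa2 between 1.96 and 2.97 and Saa1 between 1.51 and 2.39. The median over the members was 0.54, and -0.02 without both mice.

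In LL, GKA gave 0 DEGs among 10 members and 0% of 10458 genes, and 1 member and 6.15% of all genes had an unadjusted p below 0.05. Apcs was at 0.45 (SE 0.154, unadjusted p 0.00787, edgeR adjusted p 0.742). All 10 members were above 0, with a median of 0.26, and 50.5% of all genes were above 0. With an offset for effective transcript length, 6 of 10 members were above 0 and the median was 0.20. Saa2 had the largest value, 0.64 (SE 0.393, unadjusted p 0.115). With 1 mouse left out at a time, in a fit of all 6 groups, Apcs was between 0.31 and 0.51. Its unadjusted p in these refits was 0.0276 to 0.153 (edgeR), by another model than the one that gave 0.00787. The lowest values of Saa3 (-0.04), Orm2 (-0.35) and Itih4 (-0.16) in these refits were below 0. Ranges with and without GKA did not overlap for 0 of 10 members in each genotype, against 0.00871% of 11477 genes in PP, 0% in PL and 0% in LL.

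Whether GKA acted differently by genotype was tested with an interaction term. For LL against PP, 0 of 10 members passed the adjusted threshold, as did 0% of 11193 genes, and 2 members and 5.75% of all genes had an unadjusted p below 0.05. These were Crp, at 0.28 (SE 0.129, unadjusted p 0.0345, edgeR adjusted p 0.867), and Apcs, at 0.47 (SE 0.228, unadjusted p 0.0479, adjusted p 0.867). Saa2 had the largest term, 0.90 (SE 0.661, unadjusted p 0.183). For PL against PP, 0 of 10 members and 0% of 11152 genes passed, and 2 members and 3.35% of all genes had an unadjusted p below 0.05. Saa2 was at 3.02 (SE 0.989, unadjusted p 0.00432, edgeR) and Saa1 at 2.35 (SE 0.879, unadjusted p 0.0113). Without mice 31 and 32 these terms were 0.46 (unadjusted p 0.545, edgeR) and 0.29 (unadjusted p 0.679). The comparisons above share groups, so their values are given side by side and are not separate evidence.

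**Figure D2:**
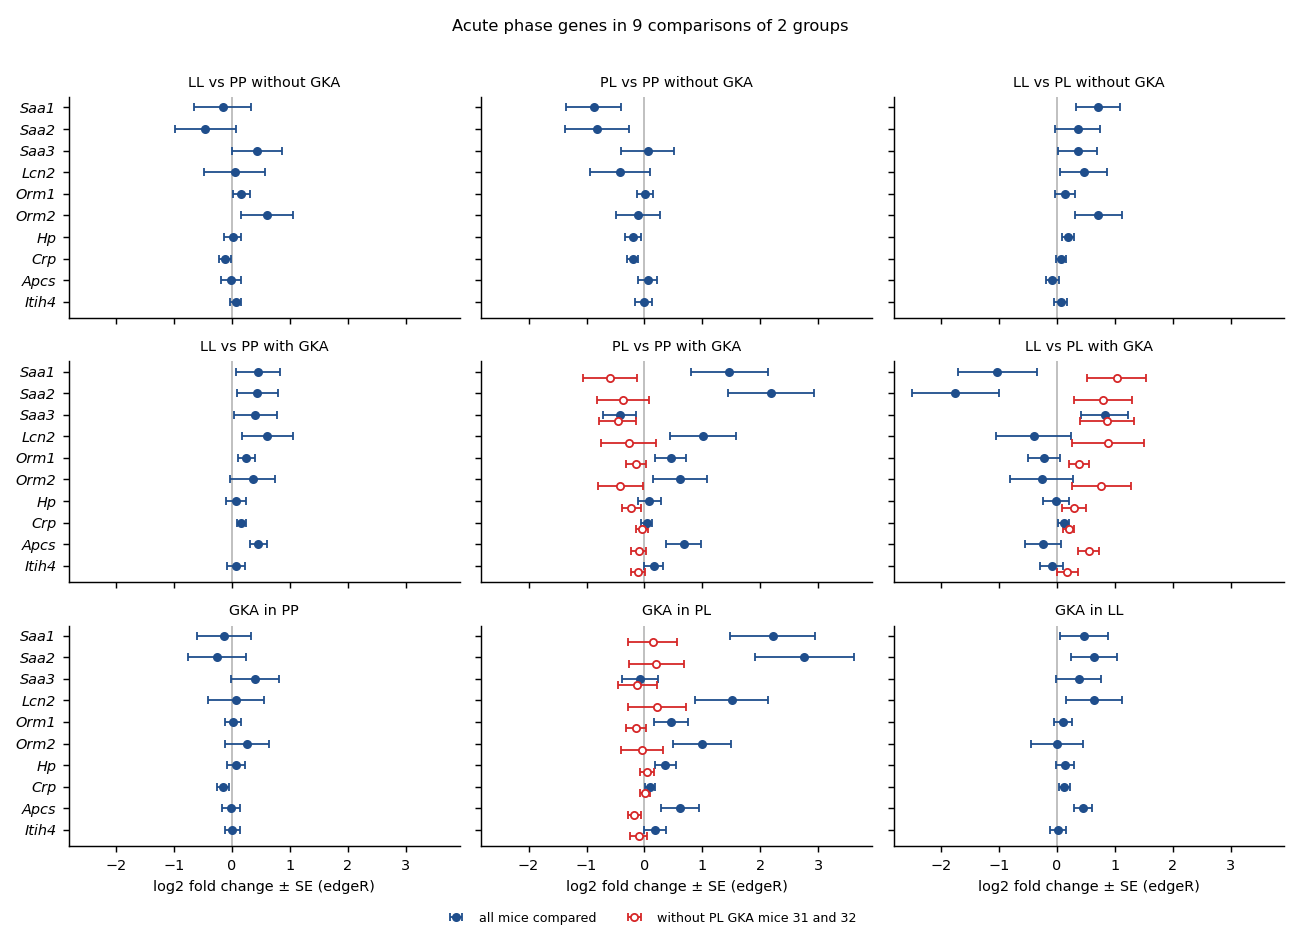
Log2 fold change (x axis, point) and standard error (bar) of the 10 members (y axis) in 9 comparisons of 2 groups by edgeR, with all mice compared (blue, filled) and without PL mice 31 and 32 with GKA (red, open). Saa2 for GKA in PL was 2.76 with all mice and 0.20 without the 2 mice, and no member was a DEG in any panel.

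PL mice 31 and 32 with GKA, singled out for their Saa1 and Saa2, stood apart in a broad set of acute phase genes. Saa1 was 1234 CPM in mouse 31 and 964 CPM in mouse 32, against 19.5 to 148 CPM in the other 6 PL mice with GKA and at most 378 CPM in the other 53 mice. Saa2 was 1081 and 823 CPM, against 10.8 to 85.8 CPM in the other 6 and at most 196 CPM in the other 53. Both mice were above the other 6 for 8 of 10 members and above all other 53 for 4, Saa1, Saa2, Orm1 and Apcs. Over 11477 genes, 5.41% were above the other 6 in both mice and 0.645% above all other 53. Saa1 and Saa2 are counted here although they singled out the mice. Orm1 was 1171 and 1495 CPM, against at most 821 CPM in the other 53 mice. Apcs was 132 and 153 CPM, against at most 92.9 CPM elsewhere. The exceptions were Saa3, at 2.55 and 4.89 CPM against 1.53 to 4.96 CPM in the other 6, and Crp, at 335 and 315 CPM against 228 to 319 CPM.

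Lcn2 was 134 CPM in mouse 31 and 81.8 CPM in mouse 32, Orm2 was 88.5 and 78.3 CPM, Hp was 4673 and 4518 CPM, and Itih4 was 2519 and 1915 CPM. For these 4 genes another mouse was as high as at least 1 of the 2.

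Of the 24 other positive acute phase proteins listed, 13 were higher in both mice than in the other 6 PL mice with GKA, and 6 were higher than in all other 53 (5.41% and 0.645% of all genes). The fibrinogen chains were among the 6, with Fga at 7368 and 7000 CPM against at most 5575 CPM in the other 53, Fgb at 8068 and 7198 CPM against at most 5583 CPM, and Fgg at 6144 and 6243 CPM against at most 4460 CPM. The others were the protease inhibitor genes Serpina3n (685 and 543 CPM) and Serpina10 (228 and 203 CPM), and Lrg1 (484 and 460 CPM), a secreted glycoprotein. Hamp, the iron hormone hepcidin, lay at 254 and 199.5 CPM, below the 409 to 1018 CPM of the other 6. Cd14, a gene at low level (median 8 reads), was also below them, at 0.900 and 0.587 CPM against 0.957 CPM or more. Of all genes, 5.18% were below the other 6 in both mice. Of 12 negative acute phase proteins, Serpina6 (corticosteroid-binding globulin, 107 and 120 CPM) was below the other 6 and Trf (transferrin) was above them.

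The feedback inhibitor Socs3 was 19.8 and 26.4 CPM in mice 31 and 32, against 1.90 to 10.7 CPM in the other 6 PL mice with GKA and at most 33.7 CPM in the other 53. Stat3, the transcription factor downstream of Il6, was 107 and 79.7 CPM against 37.5 to 67.1 CPM.

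Cell type markers were compared in the same mice. The 12 macrophage genes summed to 253 and 299 CPM, within the 94.1 to 769 CPM of the other 53 mice. The 11 neutrophil genes summed to 0.600 and 0.979 CPM, within 0 to 2.35 CPM. The 10 B and T lymphocyte genes summed to 44.4 and 57.0 CPM, against 3.96 to 53.2 CPM in the other 53, mostly from Ighm (39.8 and 53.6 CPM). The blood genes summed to 646 and 647 CPM, within 287 to 2958 CPM. Mouse 31 had the most reads of all mice, 8093368, and mouse 32 had 6459902. The part of lymphocyte genes or depth in the high values was not tested.

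The share of Saa2 in the reads of Saa1 and Saa2 together was also highest in these mice, 46.7% in mouse 31 and 46.0% in mouse 32, against 24.8% to 39.6% in the other 53 (median 33.9%). Summed to a single gene, Saa1 and Saa2 had a log2 fold change of 2.44 for GKA in PL (SE 0.786, unadjusted p 0.00620, edgeR), and 0 of the 9 comparisons of 2 groups called the sum. The sum of Orm1, Orm2 and Orm3 was called in 0 of 9.

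Several other single mice were high for some members, and they were also chosen after their values were seen. LL mouse 37 without GKA had the highest Orm2 of all 55 mice, 94.5 CPM, with 362 CPM of Saa1, and its blood genes summed to 1643 CPM, the highest of that group (median 562 CPM). LL mouse 53 with GKA had the highest Saa3 (19.4 CPM), Hp (4742 CPM) and Itih4 (2759.6 CPM), with 378 CPM of Saa1, and the highest summed blood genes, 2958 CPM. LL mouse 48 with GKA had 86.5 CPM of Lcn2 and 11.8 CPM of Saa3, each the second highest value, with the second highest Lyz2 (108 CPM), a myeloid gene. PP mouse 5 without GKA had 333 CPM of Saa1 and 1969 CPM of Itih4. The mice named are examples. PP with GKA also had high single values, with 1932 CPM of Itih4 in mouse 19 and 3776 CPM of Hp in mouse 13. The part of blood or myeloid genes in these values was not tested.

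The spread between mice of a group was set beside that of all 11477 genes kept in the fit of all groups. The SD of log2 CPM within groups was 1.37 for Saa2, 1.31 for Lcn2, 1.25 for Saa1 and 1.05 for Orm2, all above the 95th percentile of all genes (0.981). Saa3 had an SD of 0.82, and counting error alone at its median of 21 reads would give an SD of 0.315. Among 571 genes of similar level, within 0.5 on the log2 scale, the SD of Saa1 ranked 4. The remaining members were nearer the median of all genes (0.313), at 0.47 for Apcs, 0.44 for Orm1, 0.37 for Hp, 0.32 for Itih4 and 0.19 for Crp. Crp ranked 10001 of 11477. Among genes of similar level, the SD ranked 77 of 1136 for Apcs, 19 of 130 for Orm1 and 9 of 26 for Hp. These ranks were 13 of 44 for Itih4 and 139 of 193 for Crp.

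The spread of Saa1 was not confined to PL with GKA. Its SD by group was 1.38 in PP, 0.66 in PL and 0.98 in LL without GKA, and 0.89 in PP, 2.20 in PL and 1.01 in LL with GKA. Without PL mice 31 and 32, 3 members and not 4 were above the 95th percentile. The share of variance between the 6 groups was 2.65% for Itih4 to 15.2% for Crp, against a median of 9.64% over all genes, so most of the variance of every member lay between mice of a group.

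**Figure D3:**
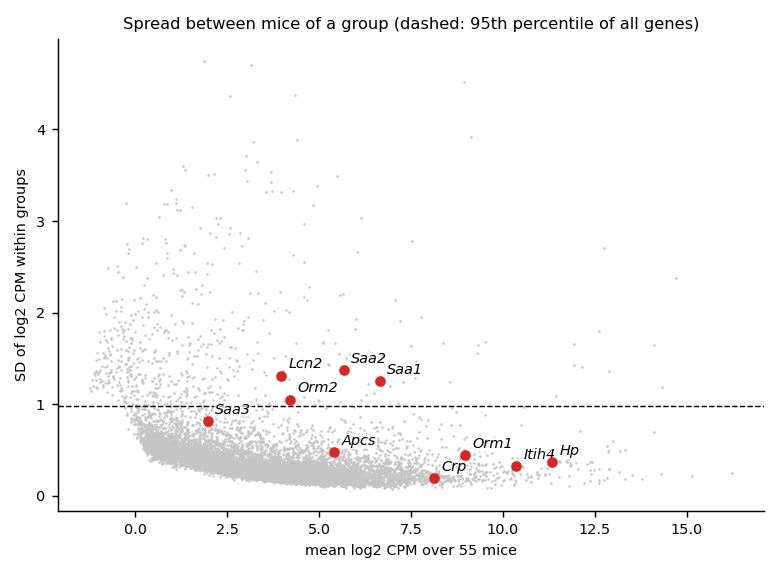
SD of log2 CPM within groups (y axis) against mean log2 CPM over 55 mice (x axis) for 11477 genes (grey) and the 10 members (red), with the 95th percentile of all genes as a dashed line. Saa2 (1.37), Lcn2 (1.31), Saa1 (1.25) and Orm2 (1.05) lie above the line at 0.981, and Crp (0.19) lies far below it.

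Members that varied did so together. Log2 CPM was centred on group means, and 45 pairs of members were correlated over 55 mice, with permutation of mice within groups and adjustment over the 45 pairs. For 32 pairs both Pearson's r and Spearman's rho passed an adjusted p of 0.05, and 30 of these were positive. Saa1 and Saa2 had r = 0.98 and rho = 0.98 (each permutation p 1e-05, the smallest that 100000 permutations can give, adjusted p 2.14e-05 and 3e-05). For Lcn2 and Orm2, which lie on different chromosomes, both were 0.93 with the same permutation p. Without the 2 farthest mice, r of Lcn2 with Orm2 was 0.91. Saa1 had r = 0.89 with Orm2, 0.87 with Lcn2 and 0.83 with Hp.

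Saa1, Saa2, Lcn2, Orm2 and Hp, grouped after these values were seen, had r between 0.79 and 0.98 and rho between 0.76 and 0.98 in all 10 of their pairs. Without the 2 mice farthest from the median of the first gene, r was between 0.72 and 0.97. The lowest r of any of these pairs within a single group was 0.54. On the scale of log2(TPM + 1), r was 0.495 for Saa1 with Hp and 0.43 for Saa2 with Hp. For the other pairs of this set it was between 0.74 and 0.96, so the closeness of Hp to Saa1 and Saa2 depended on the scale. Identical stretches shared by Saa1 and Saa2 enter their own correlation, but not that of Lcn2 with Orm2 or of Saa1 with Hp.

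Saa3 was correlated with Saa1 at r = 0.66 (rho 0.70), and at 0.79 without the 2 farthest mice, which were 31 and 32. For Orm1 and Apcs the opposite was seen. The r of Saa1 with Apcs was 0.73, and 0.55 without these mice, and that of Saa1 with Orm1 was 0.71, and 0.55 without them. For Apcs and Itih4, r was 0.52, and 0.31 without them. The 2 high mice thus lowered the correlation of Saa1 with Saa3 and raised that with Orm1 and Apcs.

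Crp stood outside this pattern. Its r with the other 9 members was between -0.33 and 0.27, and rho between -0.35 and 0.26. Negative pairs that passed were Saa3 with Crp (r = -0.33, rho = -0.35, permutation p 0.0213 and 0.0119, adjusted p 0.0281 and 0.0184) and Orm2 with Crp (r = -0.32, rho = -0.35, permutation p 0.0292 and 0.0153, adjusted p 0.0365 and 0.0222). On the scale of log2(TPM + 1), these r were -0.06 and 0.17, so the sign of Orm2 with Crp depended on the scale, and r of Hp with Crp went from -0.10 to 0.61. Without the 2 farthest mice, r was -0.30 for Saa3 with Crp and -0.39 for Orm2 with Crp. Without PL mice 31 and 32, r of Crp with Saa1 was -0.40, against -0.13 with all mice, and with Orm2 it was -0.52. Without the 2 farthest mice, 44 of 45 pairs kept the sign of r.

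**Figure D4:**
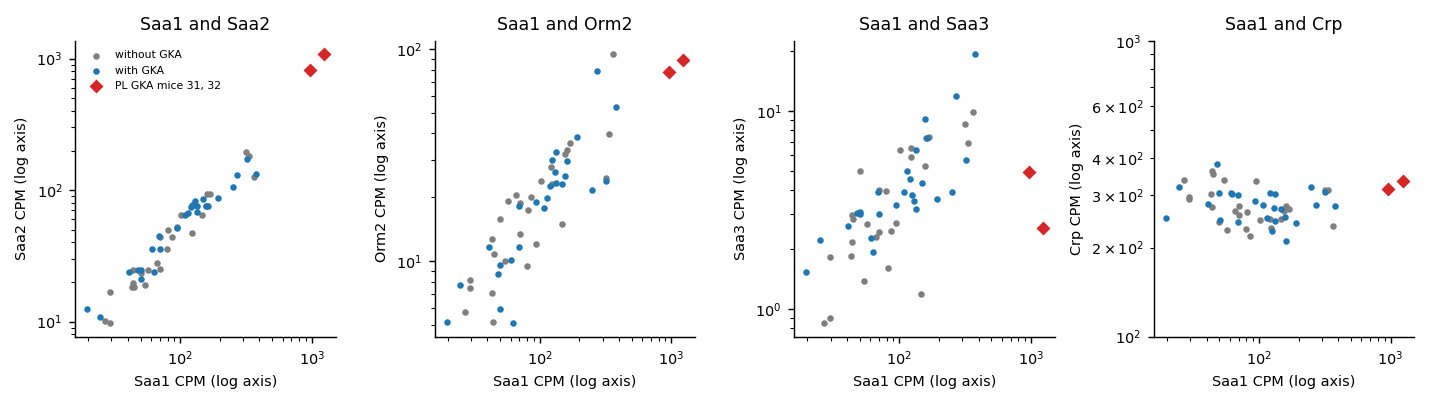
Level of Saa2, Orm2, Saa3 and Crp (y axes, CPM, log) against Saa1 (x axes, CPM, log) in 55 livers without GKA (grey), with GKA (blue) and in PL mice 31 and 32 with GKA (red diamonds). Saa2 and Orm2 follow Saa1 (r = 0.98 and 0.89 of centred log2 CPM). Orm2 was no higher in the 2 diamonds (88.5 and 78.3 CPM) than in LL mouse 37 without GKA (94.5 CPM, with 362 CPM of Saa1). Saa3 follows Saa1 except in the 2 diamonds, and Crp does not follow it (r = -0.13, and -0.40 without the 2 diamonds).

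**Figure D5:**
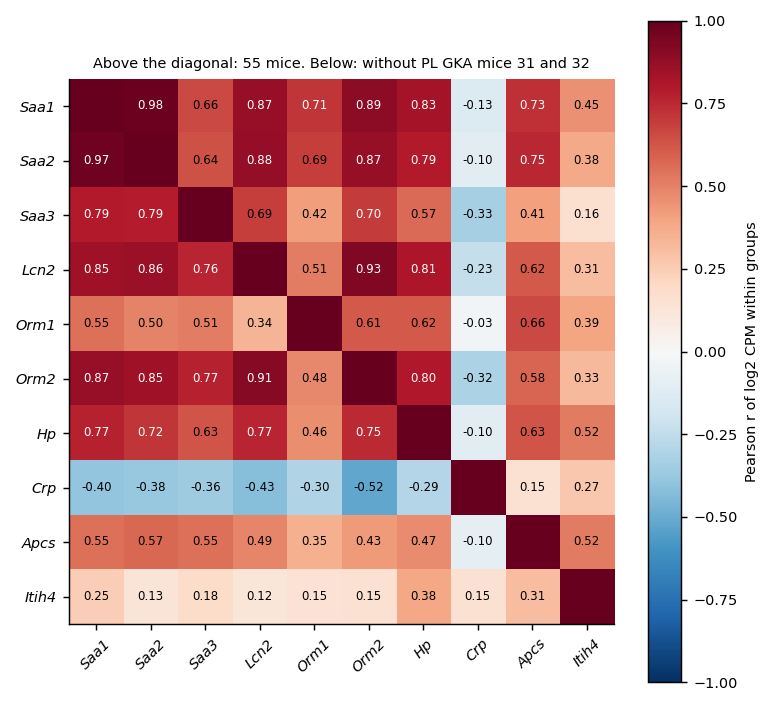
Pearson's r (colour and printed value) of log2 CPM centred on group means for the 45 pairs of members, over 55 mice above the diagonal and without PL mice 31 and 32 with GKA below it. Lcn2 with Orm2 was 0.93 and 0.91, and Saa3 with Saa1 was 0.66 and 0.79.

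The other genes of the pathway gave no DEG in any of the 11 comparisons. Of 8 cytokine genes, Il22 had no read in any of 55 mice, Il6 and Osm were at 0 in 50 mice, Il11 in 52, Lif in 45 and Tnf in 33. Il1a (median 12 reads) and Il1b (median 8 reads) were present in all 55, and 1 or 2 cytokine genes per comparison could be tested. A change in a cytokine that stayed below these counts was not detectable at this depth.

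Among the 10 receptor genes, 8 or 9 were tested per comparison. Il6ra, the Il6 receptor, had a log2 fold change of -0.58 for GKA in PP (SE 0.241, unadjusted p 0.0249, edgeR) and of -0.50 for LL against PL with GKA (SE 0.208, unadjusted p 0.0255). Osmr, the oncostatin M receptor, was at -0.53 for LL against PP without GKA (SE 0.252, unadjusted p 0.0468). None of these had an adjusted p below 0.411.

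Among the 10 transcription factor genes, of which 9 or 10 were tested, Cebpb was nearest to a call. Its log2 fold change was -0.78 for GKA in LL (SE 0.164, unadjusted p 9.39e-05, edgeR adjusted p 0.296), -0.74 for LL against PP with GKA (SE 0.164, unadjusted p 0.000166, adjusted p 0.0535) and -0.60 for LL against PL with GKA (SE 0.221, unadjusted p 0.0134, adjusted p 0.451). All 3 share the LL mice with GKA, and without PL mice 31 and 32 the last was -0.36 (unadjusted p 0.116, edgeR). Cebpa, which encodes the constitutive hepatic C/EBP, was at 0.26 for PL against PP without GKA (SE 0.0659, unadjusted p 0.00102, edgeR adjusted p 0.126). Foxa2 was at -0.61 for LL against PP with GKA (SE 0.201, unadjusted p 0.00611), and Hnf4a at -0.18 for PL against PP without GKA (SE 0.0749, unadjusted p 0.0244).

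Of 8 feedback inhibitors, 7 were tested. Socs3 was at -1.10 for LL against PP (SE 0.447, unadjusted p 0.0229, edgeR) and at -1.30 for LL against PL without GKA (SE 0.5264, unadjusted p 0.0227). It was at 1.28 for PL against PP with GKA (SE 0.494, unadjusted p 0.0172), at -1.58 for LL against PL with GKA (SE 0.472, unadjusted p 0.00316) and at -1.12 for GKA in PP (SE 0.486, unadjusted p 0.0318). Without PL mice 31 and 32, Socs3 was at 0.46 for PL against PP with GKA (unadjusted p 0.334, edgeR) and at -0.75 for LL against PL with GKA (unadjusted p 0.0889). Cish, an inhibitor of STAT5 signalling, was at -1.19 for LL against PP with GKA (SE 0.509, unadjusted p 0.0281). Pias3 was at -0.45 for GKA in PL (SE 0.129, unadjusted p 0.00257). The lowest adjusted p of these genes was 0.320 by edgeR.

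Of 24 other positive acute phase proteins, 21 to 23 were tested and 0 were DEGs. Their median log2 fold change was between -0.06 and 0.26 in the 11 comparisons. Serpina3n, the mouse antichymotrypsin, was at 0.62 in the interaction of GKA with PL (SE 0.198, unadjusted p 0.00339, edgeR), at -0.30 for PL against PP without GKA and at 0.38 for GKA in PL. Fga was at 0.47 in the interaction of GKA with LL (SE 0.185, unadjusted p 0.0158, edgeR), and Saa4, the constitutive serum amyloid A, at 0.49 for PL against PP with GKA (SE 0.192, unadjusted p 0.0202). Fgl1, a secreted fibrinogen-like protein of hepatocytes, was at 0.72 for GKA in LL (SE 0.294, unadjusted p 0.0231) and at 0.69 for LL against PP with GKA (SE 0.321, unadjusted p 0.0420). Each of these had an adjusted p of at least 0.363. Without PL mice 31 and 32, Saa4 in PL against PP with GKA was at 0.13 (unadjusted p 0.363, edgeR), and Serpina3n was at 0.35 in the interaction (unadjusted p 0.0344) and at 0.10 for GKA in PL (unadjusted p 0.318).

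All 12 negative acute phase proteins, which include albumin and transthyretin, were tested and 0 were DEGs. Serpina7, thyroxine-binding globulin, was at 0.81 for LL against PP with GKA (SE 0.194, unadjusted p 0.000402, edgeR adjusted p 0.0738) and at 0.61 for LL against PL with GKA (SE 0.235, unadjusted p 0.0173). Serpina6 was at 0.44 for LL against PP without GKA (SE 0.150, unadjusted p 0.00771, edgeR adjusted p 0.217) and at -0.38 for GKA in LL (SE 0.171, unadjusted p 0.0375). Igf1 (0.29 for LL against PP with GKA) and Apom (0.31 for PL against PP with GKA) had unadjusted p of 0.0458 and 0.0373, and Apom was at 0.20 without PL mice 31 and 32 (unadjusted p 0.199, edgeR). The median of the list was between -0.005 and 0.068 in the 11 comparisons.

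Genes that followed the members most closely were found from the mean over the 10 members, each centred on group means and scaled to unit SD, by Pearson's r over 55 mice among 10709 genes, predicted and clone-named genes left out. Hpx (haemopexin, which binds free haem) was first at 0.87, and at 0.86 without PL mice 31 and 32. Fgl1 followed at 0.77 (0.60 without these mice), then the membrane proteins Tmem176a at 0.71 (0.78) and Tmem176b at 0.70 (0.79), and Lrg1 at 0.69 (0.48). Cyb561 (0.69), Serpina10 (0.68), Litaf (0.65), Ly6e (0.63) and Dnajc12 (0.63) completed the 10 highest. At the other end were Etnppl (-0.63), Erbb4 (-0.60), Cat (catalase, -0.58), Car3 (-0.57) and Cyp4v3 (-0.56). For Saa3 alone, Hpx (0.69), Tmem176b (0.66), Tmem176a (0.66), Uap1l1 (0.62) and Tagln2 (0.60) were highest. These values describe likeness over mice that share library preparation and scaling.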

How the data were processed

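Liver RNA (left lateral lobe) of 56 mice was sequenced by the authors. Per the labels, the authors estimated transcript abundance with Salmon 1.4.0 on GRCm39 without trimming, and deposited an estimated count (expected count) and a TPM per transcript. Here, estimated counts were summed per gene through the GENCODE annotation (98.8% of 139225 transcripts matched, 99.8% to 99.9% of reads) and rounded. The authors' TPM was summed per gene and used to set genes side by side and, as log2(TPM + 1), as an alternative.

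Pairs of groups were compared with edgeR 4.0.16 (quasi-likelihood test, TMM scaling, filterByExpr, R 4.3.3), with Benjamini-Hochberg adjustment over all genes tested. GKA by genotype was tested as an interaction over 4 groups. The script was tested on simulated data. Alternatives were DESeq2 1.42.0, RLE scaling, no filter, PP mouse 7 kept, an effective length offset, a covariate from 16 clock genes, a fit of 6 groups, 55 refits without 1 mouse each and, chosen after seeing the data, a fit without PL mice 31 and 32 with GKA. Correlations used 100000 permutations of mice within groups, two-sided. Sequences were read from the GRCm39 reference.

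The members and gene lists were chosen with earlier results of these data known. All members have their levels given. Fold changes are given for members with an unadjusted p below 0.05 and for the member farthest from 0. From each other list, genes called or with the smallest unadjusted p are named. PP mouse 7 was removed by the authors and left out of the main comparisons here.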

Additional observations from a re-analysis of the deposited data

Results flagged for a closer look

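Within a group, the gap between the highest mouse and the next was large for the group's range (Dixon's ratio, 95% critical value) in 3 of 120 ends of 60 groups, where chance flags about 1 in 20 groups. Crp in LL mouse 49 with GKA was 383 CPM. Itih4 in PP mouse 5 without GKA was 1969 CPM, and Itih4 in LL mouse 53 with GKA was 2760 CPM. PL mice 31 and 32 with GKA did not meet this rule, because each lay near the other.

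PP mouse 7, which was left out of the main comparisons, had 11.49 CPM of Saa3 (92 reads). The other 9 PP mice without GKA had 0.845 to 8.56 CPM. Its Crp, 199 CPM, was below that of all 55 other mice. Its 12 macrophage genes summed to 507 CPM, against 182 to 384 CPM in the other 9, and their part in the Saa3 value was not tested.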

How the results depend on the processing

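No member was called in any comparison under any of the alternatives run. The lowest adjusted p of a member was 0.0812, for Saa2 in PL against PP with GKA, against 0.229 over all members in the results as reported. Over all genes, called genes per comparison numbered 0 to 25 as reported, 0 to 111 by DESeq2, 0 to 33 with PP mouse 7 kept, 0 to 17 without a filter, 0 to 2 with the length offset, 0 to 19 with the clock covariate and 0 to 65 in the fit of 6 groups.

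Without PL mice 31 and 32 with GKA, 9 of 10 members changed sign in PL against PP with GKA, 8 in LL against PL with GKA, 4 for GKA in PL and 5 in the interaction of GKA with PL. Among the 21 fold changes named for members, 4 reversed: Saa1 (-0.59), Saa2 (-0.37) and Apcs (-0.10) in PL against PP with GKA, and Saa2 (0.80) in LL against PL with GKA. The cause was not tested. Leaving out 1 mouse at a time kept Saa2 between 1.39 and 2.38 and Saa1 between 0.77 and 1.65 in PL against PP with GKA. Correlated pairs numbered 32 as reported and 31 to 35 under the alternatives. On log2(TPM + 1) the SD was 0.62 for Hp, 0.53 for Crp and 0.56 for Itih4.

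No paired analysis was possible because every mouse has a number of its own. Depth limits Saa3 (median 21 reads) and the cytokines most.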
